A study of Mus musculus with 18 samples.

Results

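The regions of open chromatin described here are those of 5 cytokine receptor genes of naive T cells: Il2rg, Il2rb, Il4ra, Il6ra and Il6st. Peaks of 18 deposited lists were merged wherever they shared at least 1 bp, which gave 33115 union regions, and each region was given to the protein-coding gene whose end lay nearest to its centre, within 100 kb. By that rule 22 of the 33115 regions belonged to the 5 genes: 9 to Il6st, 5 to Il4ra, 4 to Il2rb, 3 to Il6ra and 1 to Il2rg. The rule assigns regions by gene positions and uses no measured level, although the 5 genes were picked with earlier results of these data known.

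The lists come from ATAC-seq, in which the transposase Tn5 inserts sequencing adapters into open DNA, of naive CD4+ T cells from untreated wild-type C57BL6/J mice. Cells were freshly prepared from spleen, mesenteric lymph nodes or axillary lymph nodes and sorted for low or high signal of Nr4a1-dsGFP, a destabilised green fluorescent protein that reports transcription of Nr4a1, a gene induced through the T cell receptor (TCR). The labels call this signal tonic TCR stimulation, and the comparisons ask how open chromatin differs with it and with the organ of residence. There are 6 groups of 3 libraries (9 low against 9 high, 6 per organ), and neither age nor sex of the mice is stated in the labels. The 3 libraries of a group are called biological replicates there, with no word on whether each came from its own animal. The p-values below treat libraries as the units, except in the fit on group means, and the spread among libraries may be technical.

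Cytokine receptors of this class are built from chains that carry no enzyme of their own and signal through JAK kinases bound to their tails, which phosphorylate STAT factors. Il2rg encodes the common gamma chain, shared by the receptors for IL-2, IL-4, IL-7, IL-9, IL-15 and IL-21. Il2rb encodes the beta chain (CD122) of the IL-2 and IL-15 receptors, which is low on naive CD4+ T cells and higher on memory T cells and NK cells. Il4ra encodes the alpha chain that binds IL-4 and, with a partner chain, IL-13, and signals through STAT6. Il6ra encodes the chain that binds IL-6, and Il6st encodes gp130, which signals for IL-6 through STAT3 and is shared with the receptors for IL-11, IL-27, LIF and oncostatin M. Peak lists describe accessible DNA and hold no RNA or protein level.

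The promoters of 4 of the genes are shown because open regions covered or touched them, and because they differ in sequence make-up. Each is the 250 bases before the transcription start, 5′ to 3′ on the strand of the gene, from RefSeq on build GRCm38.p6 (the mm10 assembly of the peak lists). Capitals mark matches to the letters CCGGAA (ETS-type), TGTGGT (RUNX-type), GGGCGG (SP/KLF-type) and TTCNNNGAA (STAT-type), searched on both strands, where N is any base. The positions are chrX:101268256-101268505 (minus strand) for Il2rg, chr7:125552021-125552270 (plus) for Il4ra, chr3:89913197-89913446 (minus) for Il6ra and chr13:112463820-112464069 (plus) for Il6st.
Il2rg: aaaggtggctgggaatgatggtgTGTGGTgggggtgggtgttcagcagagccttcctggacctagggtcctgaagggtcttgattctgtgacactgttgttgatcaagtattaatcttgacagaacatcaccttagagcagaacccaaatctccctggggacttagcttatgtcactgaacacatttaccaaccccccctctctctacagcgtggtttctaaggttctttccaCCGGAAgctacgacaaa
Il4ra: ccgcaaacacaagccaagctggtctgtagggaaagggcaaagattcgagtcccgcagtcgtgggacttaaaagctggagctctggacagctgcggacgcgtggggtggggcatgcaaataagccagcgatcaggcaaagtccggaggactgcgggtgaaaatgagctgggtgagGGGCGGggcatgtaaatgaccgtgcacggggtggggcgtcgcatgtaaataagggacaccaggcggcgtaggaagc
Il6ra: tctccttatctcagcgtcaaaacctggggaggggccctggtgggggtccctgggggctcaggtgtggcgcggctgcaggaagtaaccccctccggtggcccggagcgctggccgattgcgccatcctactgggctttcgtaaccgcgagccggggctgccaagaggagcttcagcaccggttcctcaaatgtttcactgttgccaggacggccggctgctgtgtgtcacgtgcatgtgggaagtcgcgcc
Il6st: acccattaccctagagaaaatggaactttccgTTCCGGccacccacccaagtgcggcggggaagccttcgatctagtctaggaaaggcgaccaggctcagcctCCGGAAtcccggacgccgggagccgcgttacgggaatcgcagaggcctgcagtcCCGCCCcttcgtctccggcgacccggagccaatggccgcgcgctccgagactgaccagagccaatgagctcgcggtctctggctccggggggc

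Counted from the start site, with -1 the base before it, the Il2rg promoter held an ETS-type match at -17 to -12 and a RUNX-type match at -227 to -222. In Il4ra an SP/KLF-type match lay at -76 to -71. The Il6st promoter held ETS-type matches at -147 to -142 and, on the other strand, at -218 to -213, besides an SP/KLF-type match on the other strand at -93 to -88. No match to the 4 motifs was found in the Il6ra window, and none to the STAT-type letters in any of the 4 windows. No motif overlapped another. Of 32851 promoters of the same length, 12.03% held the ETS-type, 14.0% the RUNX-type, 32.7% the SP/KLF-type and 7.02% the STAT-type letters. The Il2rg window had 3 CpG pairs, that of Il4ra 17, Il6ra 18 and Il6st 26, against a median of 6 over all promoters. A letter match is a description of the sequence and does not show a bound factor.

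The 5 genes were open at different places (map of regions along each gene). Of the 22 regions, 6 (27.3%) had a peak in all 18 libraries, against 26.4% of all regions, and 2 had a peak in 1 library. The median was 11.5 libraries per region, against 8 over all regions. Region widths were alike, with a median of 428 bp against 425 bp over all regions. A gene end lay within 1 kb of the centre in 4 of the 22, against 30.5% of all regions, and 8 centres lay inside a gene. Il6st had more regions than 97.2% of the 12861 genes with any region, whose median was 2. Exon and intron positions were not used here, so regions are described as inside or outside a gene. No centre was farther than 39.3 kb from its gene end.

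**Figure D1:**
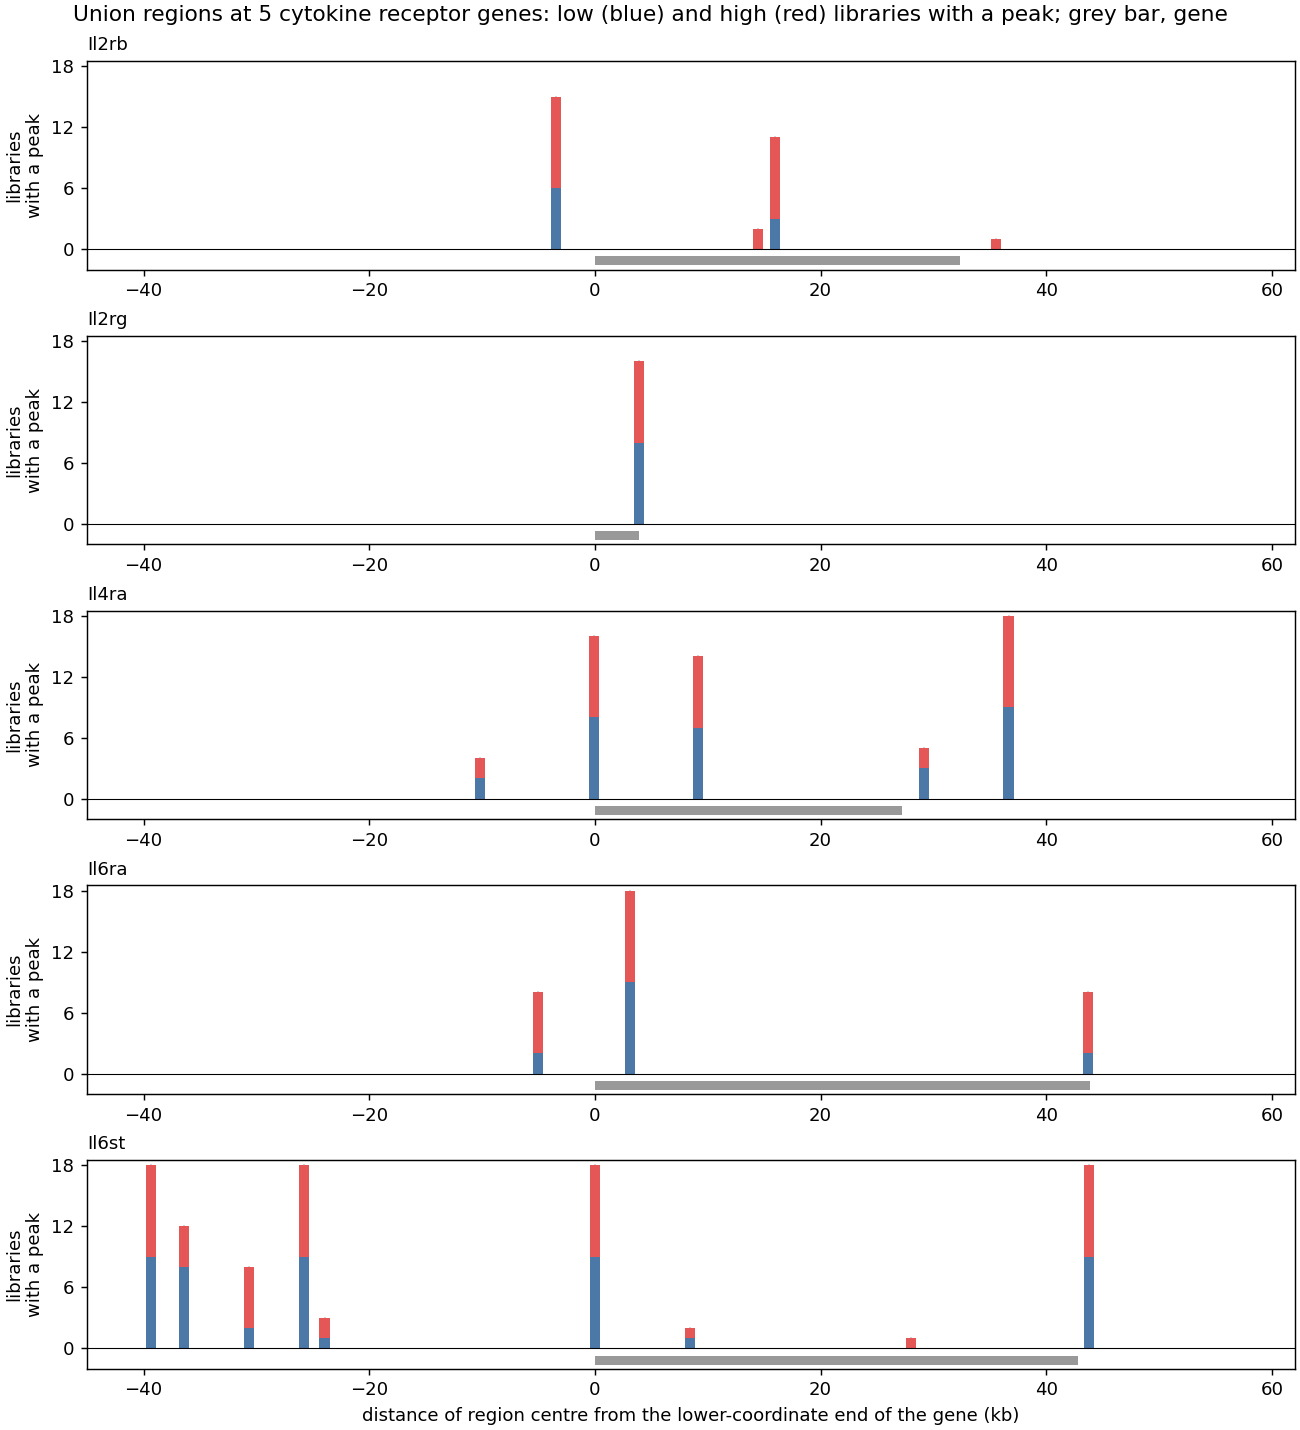
Bars give the libraries with a peak (blue, of 9 low; red, of 9 high) in each of the 22 union regions against the distance in kb of the region's centre from the lower-coordinate end of its gene, whose body is the grey bar. Il6st had 4 regions with a peak in all 18 libraries and Il6ra and Il4ra 1 each, while Il2rb and Il2rg had none.

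Il2rg (NCBI gene ID 16186, chrX:101264385-101268255) had its only region at the promoter shown above (chrX:101268021-101268585), with a peak in 16 of 18 libraries. The 16 summits had a median position 17 bp inside the start site. Every spleen and mesenteric library had this peak, whereas axillary low 2 and axillary high 2 did not. Fold enrichment, the authors' own value for a peak (its height over the local background), was 7.60 ± 1.80 (SD, n = 16) and ran from 5.03 in axillary low 3 to 10.6 in spleen high 1. In spleen it was 5.91, 5.61 and 7.65 in low libraries and 10.6, 7.77 and 9.55 in high libraries. In mesenteric nodes it was 6.19, 6.45 and 8.26 in low and 9.84, 9.79 and 9.56 in high libraries. The folds of high libraries thus lay above those of low ones in these organs, while in axillary nodes, with 7.01 and 5.03 in low and 6.87 and 5.55 in high libraries, they overlapped. The share of all regions with such a gap was not counted. The Il2rg differences were not tested, because the region lacked a peak in 2 libraries. Relative depth was also higher on average in the high libraries (13.7 ± 0.441 against 12.5 ± 2.40 in spleen and 16.6 ± 0.0549 against 12.2 ± 0.471 in mesenteric nodes, SD, n = 3 each). In spleen the depths overlapped, with 14.4, 13.3 and 9.84 in low libraries 1, 2 and 3 and 13.2, 14.0 and 14.0 in high libraries 1, 2 and 3. The peak's median rank percentile within its own list, by the deposited −log10 p, was 34.5, so most peaks of a list were stronger.

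Il2rb (gene ID 16185, chr15:78479256-78511621) had 4 regions, none in all 18 libraries. Its most frequent region lay 3.5 kb outside the lower-coordinate end (chr15:78475460-78476083) and had a peak in 15 libraries, 9 of 9 high and 6 of 9 low. Fold enrichment there was 8.26 ± 1.81 (SD, n = 15). Inside the gene, 15.9 kb from the same end, lay a region with a peak in 11 libraries (chr15:78494968-78495411), and at 14.4 kb another with a peak in 2 mesenteric high libraries. The last region, 3.2 kb outside the other end, had 1 peak, in mesenteric high 2. All 3 libraries without the 15-library region were low ones: spleen low 3, axillary low 1 and axillary low 3. Their relative depths were 9.84, 9.53 and 8.48, and their fragment estimates (the narrowest peak of a list) were long, at 233, 216 and 219 bp. Axillary low 2 and axillary high 1 and 3, also with long estimates, had the peak at depths of 9.24, 9.60 and 9.85. Among libraries with the shorter estimate, all 7 high and all 5 low ones had it. The part of depth or fragment length was not tested.

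Il4ra (gene ID 16190, chr7:125552271-125579474) had 5 regions, strung from 10.2 kb before its start site to 9.4 kb past its end. The last of them, 36.7 kb from the start (chr7:125588677-125589172), lay between Il4ra and Il21r, the gene of the IL-21 receptor, whose nearer end was 14.3 kb away. It was present in all 18 libraries with a fold enrichment of 9.05 ± 1.68 (SD, n = 18), the highest mean of the 22 regions. The promoter region (chr7:125551941-125552397) had a peak in 16 libraries at 7.11 ± 1.26-fold (n = 16), with the median summit at -71.5 bp from the start. It lacked a peak in axillary low 3 and axillary high 1. A region inside the gene at 9.2 kb had a peak in 14 libraries, 11 of 12 from spleen and mesenteric nodes and 3 of 6 from axillary nodes. The remaining ones, 10.2 kb before and 29.1 kb after the start, had peaks in 4 and 5 libraries.

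Il6ra (gene ID 16194, chr3:89869324-89913196) had 3 regions, and the strongest was not at its promoter. It lay inside the gene 40.8 kb after the start and 3.1 kb from the far end (chr3:89872217-89872618), had a peak in all 18 libraries, and stood at a median rank percentile of 70.3, the highest of the 22. The promoter region (chr3:89912728-89913358) had a peak in 8 libraries at 6.11 ± 1.06-fold (SD, n = 8), and the peaks of 5 of them reached into the 250 bases shown above. The median summit of this region lay 88 bp inside the start. The other region had a peak in 8 libraries and lay 5.1 kb past the gene's end. The gene She was nearly as close to it, at 5.4 kb, so its place with Il6ra rests on a small difference in distance.

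Il6st (gene ID 16195, chr13:112464070-112506860) had 9 regions, of which 4 were present in all 18 libraries. The promoter region (chr13:112463787-112464370) had its median summit 7 bp inside the start, at 8.58 ± 1.70-fold (SD, n = 18). A group of 5 regions lay 23956 to 39303 bp before the start, in 18, 12, 8, 18 and 3 libraries in order from the farthest, and those at 39.3 kb (chr13:112424431-112425103) and 25.8 kb (chr13:112438001-112438541) were the ones in every library. For the farthest, the next gene, Ankrd55, was 40.8 kb away, so it is close to the midpoint between the genes. Past the end of Il6st, by 1.0 kb, another region in all 18 libraries (chr13:112507631-112508120) had a fold of 8.93 ± 1.71 (n = 18). Regions inside the gene at 8.4 and 28.0 kb had peaks in 2 and 1 libraries, all mesenteric.

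The number of the 22 regions with a peak in a library was lowest and highest in the groups with the shortest and longest lists. Axillary low libraries had the fewest, 9.67 ± 0.577 (SD, n = 3), and mesenteric high libraries the most, 17.7 ± 0.577. Axillary high libraries had 11.7 ± 1.15, spleen low 11.7 ± 2.52, spleen high 13 ± 1 and mesenteric low 14.3 ± 0.577. These did not all follow list length, as lists averaged 17634 peaks in spleen high and 17346 in mesenteric low libraries. The share of all 33115 regions with a peak ran from 43.8% to 68.6% between the same extremes. Relative depth, recovered from the deposited values as genome-wide reads per 10 kb, ran from 9.08 ± 0.541 in axillary low to 16.6 ± 0.0549 in mesenteric high libraries. Lists held 14372 to 23129 peaks. The narrowest peak of a list, which is the peak caller's estimate of fragment length, was 161 to 176 bp in 12 libraries and 216 to 236 bp in spleen low 3, all axillary low libraries and axillary high 1 and 3.

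The cell type was checked by peaks within 1 kb of an end of marker genes. Of 13 T cell genes, 10 had such a peak in at least 1 library and 3 (Cd3d, Cd28 and Ccr7) in all 18, while Tcf7, Lef1 and Il7r had none. Of 7 B cell genes 6 were at 0, and of 7 myeloid genes 5 were at 0. Among 9 genes of NK and memory-like cells, which carry more CD122, Ncr1, Klrb1c, Klrd1 and Nkg7 were at 0, Prf1 had a peak in 17 libraries, and the list's sum per library was 0 to 3 in high and 1 to 2 in low libraries. Of 4 genes of regulatory T cells, 3 had a peak in at least 1 library (Ikzf2 in 18, Il2ra in 13 and Tnfrsf18 in 1) and Foxp3 had none. Of the CD8 genes, Cd8a had none and Cd8b1 had a peak in all 18.

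High and low libraries were compared first by the presence of a peak. Among regions with a peak in 6 to 12 of 18 libraries, 5 of the 22 could be tested with Fisher's exact test (two-sided, 9 against 9), and none passed a Benjamini-Hochberg adjusted p of 0.05 over the 5737 regions tested (percent of all tested regions called, 0%). At an unadjusted p under 0.05, 1 was more frequent in high libraries, against 5.84% of all tested regions, and none in low libraries, against 0.261% (6.1% in either direction). This was the Il2rb region inside the gene, found in 8 of 9 high but 3 of 9 low libraries (unadjusted Fisher's exact p = 0.0498, adjusted p = 0.749). By group it was present in 1 spleen low and 3 spleen high, 2 mesenteric low and 3 mesenteric high, and 0 axillary low and 2 axillary high libraries. Its deposited folds were 5.12 to 9.08 in high libraries, and 6.87, 6.22 and 6.93 in spleen low 1 and mesenteric low 2 and 3, so where peaks were called the ranges overlapped.

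The high libraries of each organ also had the longer lists on average. With every list shortened to the strongest 14372 peaks, the Il2rb region was found in 6 high against 3 low libraries (Fisher's exact p = 0.347). At equal depth, with recovered reads thinned at random to the shallowest library, it was 7 against 3 (Fisher's exact p = 0.153). Every equal-depth test here used only the first of 20 random draws. Over the 20 draws the Il2rb region averaged 6.8 high against 2.75 low libraries. An exact test stratified by organ gave p = 0.04, and a peak required to cover 50% of the region gave 7 against 1 (p = 0.0152). Without the mesenteric libraries it was 5 against 1 (Fisher's exact p = 0.0801).

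The other 4 tested regions did not pass either threshold. The Il6st region 36.4 kb before the start was found in 4 of 9 high but 8 of 9 low libraries (Fisher's exact unadjusted p = 0.131). It was absent from all spleen high libraries and present in all mesenteric ones and all axillary low ones. The Il6st region at 30.6 kb, the Il6ra region past the gene's end and the Il6ra promoter were each found in 6 of 9 high but 2 of 9 low libraries (Fisher's exact p = 0.153 for each). In all, 4 of the 5 tested regions were more frequent in high libraries, against 64.2% of all tested regions. The promoters of Il2rg and Il4ra, each found in 8 of 9 libraries at both reporter levels, were too frequent to be tested.

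**Figure D2:**
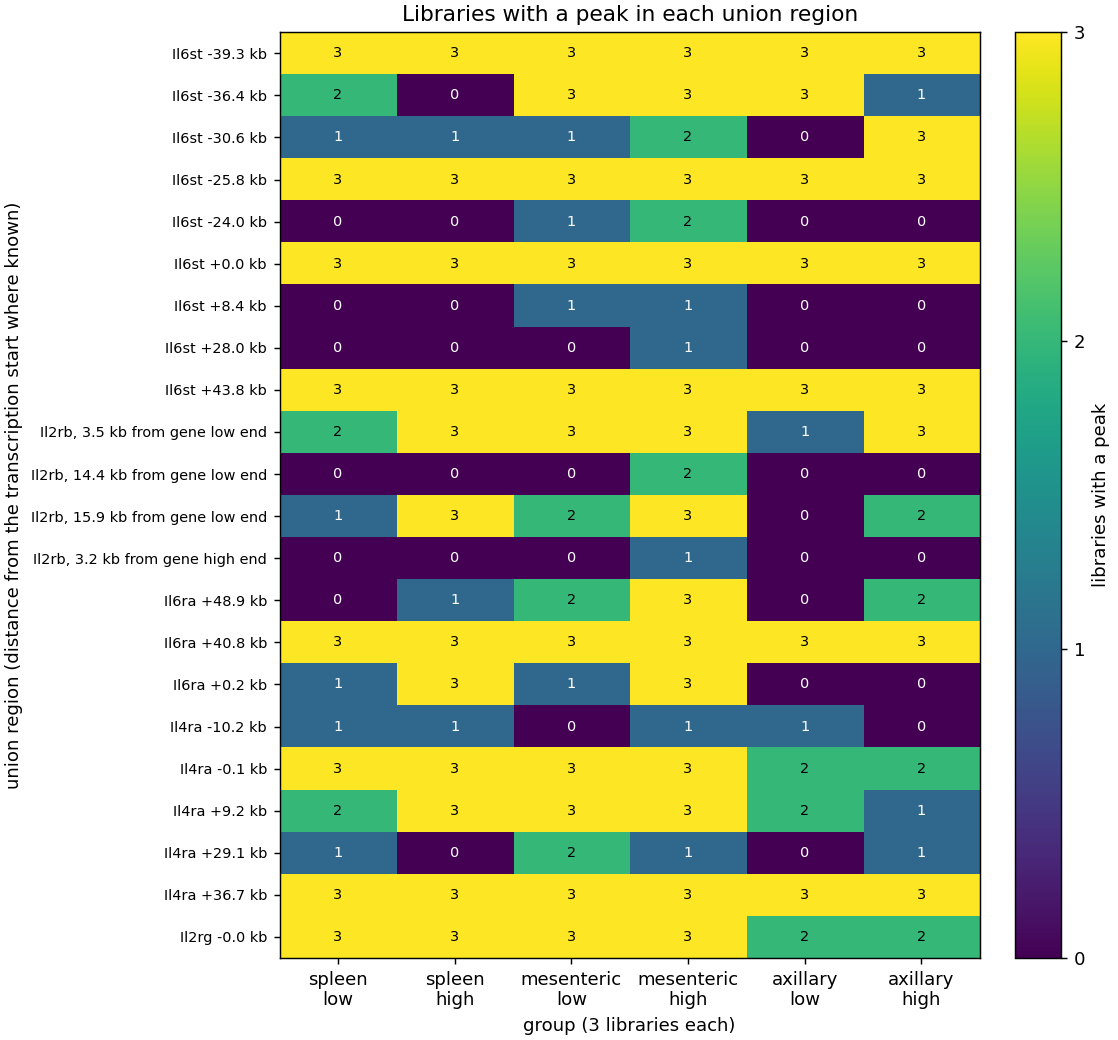
Each cell gives the number of libraries, of 3, with a peak in a union region (rows, named by gene and distance in kb from the start site, or from a gene end for Il2rb) for each group (columns). The Il6ra promoter (+0.2 kb) has 0 in both axillary groups, and the Il2rb region 15.9 kb inside the gene has 3, 3 and 2 in the high groups against 1, 2 and 0 in the low groups.

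The reads at the summit gave a measure on a continuous scale for the 6 regions with a peak in all 18 libraries. Whole summit reads were recovered from the deposited fold and −log10 p, scaled between libraries by the median of ratios, and compared as log2(reads + 1) with limma over all 8756 such regions. Limma drew each region's spread towards that of all tested regions. In this fit the p-values thus rest mostly on other regions (108.8 of 120.8 degrees of freedom). No member passed an adjusted p of 0.05 for high against low, where 1.51% of all tested regions did (0.879% higher and 0.628% lower in high), and none had an unadjusted p under 0.05, against 13.6%. The smallest unadjusted p was 0.172 and limma's adjusted p ran from 0.586 to 0.976. On the means of the 6 groups none was called either, against 0.217% of all tested regions.

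At the Il6ra region near the gene's far end, scaled summit reads were 17.0 to 31.0 in low libraries (median 25.6) and 11.2 to 29.5 in high libraries (median 23.4). The ranges overlapped almost throughout, and the difference of high minus low was -0.04 ± 0.11 (log2, SE), with a 95% interval from -0.25 to 0.18. At the Il4ra region past the gene's end, reads were 10.2 to 17.7 in low (median 14.3) and 8.27 to 20.0 in high libraries (median 15.3), a difference of 0.05 ± 0.13 with an interval from -0.20 to 0.30.

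None of the 4 Il6st regions passed for high against low either. The farthest upstream one had 16.8 to 29.0 reads in low (median 19.1) and 12.4 to 36.7 in high libraries (median 19.3), a difference of -0.01 ± 0.11 (log2, SE). The promoter differed by -0.02 ± 0.11, the region at 25.8 kb by 0.16 ± 0.12 and the one past the gene's end by -0.10 ± 0.13. The median difference over all tested regions was 0.00, and 90% of them lay between -0.20 and 0.26, the 5th and 95th percentiles. No member's high-minus-low difference was called as differing between organs in the limma interaction test (smallest adjusted p = 0.611, against 0.251% of all tested regions called). None had an unadjusted p under 0.05, against 10.5% of all tested regions. By organ, the farthest Il6st region gave -0.30 ± 0.19 in spleen, 0.02 ± 0.19 in mesenteric and 0.24 ± 0.19 in axillary nodes.

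Organs were compared next, first by presence. Of the 22 regions 6 could be tested (a peak in 5 to 13 libraries) with the exact Fisher-Freeman-Halton test, and none passed an adjusted p of 0.05 (percent of the 7630 tested regions called, 0%). The Il6ra promoter had an unadjusted p of 0.0364 (adjusted p = 0.345), where 11.2% of all tested regions were under 0.05. It had a peak in 4 of 6 spleen, 4 of 6 mesenteric and 0 of 6 axillary libraries. Axillary lists were also the shortest on average: with lists of equal length its presence across organs was no longer under 0.05, and neither was it at equal depth. The part of depth in this result was not tested further. The Il6st region at 36.4 kb had a peak in 2 spleen, 6 mesenteric and 4 axillary libraries (exact unadjusted p = 0.0845). Mesenteric libraries had the peak most often at 4 of the 6 regions, against 58.3% of all tested regions, and axillary libraries least often at 2 of the 6, against 51.2%.

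By summit reads, 3 of the 6 regions tested passed the limma F test over organs at an adjusted p of 0.05, against 13.4% of all tested regions. The strongest was the Il6st region 39.3 kb before the start. In axillary low libraries it had 26.6, 21.5 and 29.0 scaled reads, and in axillary high libraries 25.3, 30.2 and 36.7. In spleen it had 17.7, 18.3 and 19.1 in low libraries and 12.4, 19.3 and 13.2 in high libraries. Mesenteric low libraries had 17.7, 16.8 and 21.7, and mesenteric high libraries 16.1, 19.2 and 21.9. Spleen and mesenteric ranges overlapped each other, and the axillary range lay above that of spleen and overlapped the mesenteric one only through axillary low 2. How many of all regions have organ ranges set apart in this way was not counted.

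Axillary minus spleen was 0.72 ± 0.14 on the log2 scale (SE; limma adjusted p = 0.000185) and axillary minus mesenteric 0.54 ± 0.14 (adjusted p = 0.00409), with an adjusted p of 0.000190 over the 3 organs. Of the 6 axillary libraries, 5 have the longer fragment estimate. Axillary high 2, with the shorter estimate, had 30.2 reads, and spleen low 3, with the longer, had 19.1. With the fragment estimate as a covariate, added after the data were seen, axillary minus spleen was 0.69 ± 0.19 (limma adjusted p = 0.0366), while axillary minus mesenteric, at 0.50 ± 0.23, no longer passed (adjusted p = 0.319). The region was called over organs along with 3.2% of all regions (limma adjusted p = 0.0468). The reads around the peak were also higher: local background, relative to each library's genome-wide background, was 9.75 ± 0.779 in axillary, 8.58 ± 0.832 in mesenteric and 5.89 ± 0.510 in spleen libraries (SD, n = 6 each). The deposited fold, which divides by that local background, was 8.65 ± 1.25 in axillary, 7.58 ± 1.02 in mesenteric and 7.32 ± 1.03 in spleen libraries. On the log2 fold the difference of axillary minus spleen was 0.24 ± 0.12 and did not pass over organs (limma adjusted p = 0.198), a measure on which 31.4% of all regions were called.

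The Il6ra region near the gene's far end was lowest in spleen. Its scaled reads were 11.2 to 26.5 in spleen (median 20.2), 17.7 to 27.7 in mesenteric (median 24.5) and 22.2 to 31.0 in axillary libraries (median 26.4), ranges that overlapped. Axillary minus spleen was 0.47 ± 0.13 (log2, SE; limma adjusted p = 0.0178), with an adjusted p of 0.0249 over the 3 organs. That call was lost without spleen high 3 (adjusted p = 0.198), spleen low 3 (0.0936), spleen low 1 (0.0542), axillary low 1 (0.0537) or axillary high 1 (0.0614), and with the log2 fold in place of reads (0.382). It was also lost with the fragment covariate (limma adjusted p = 0.0667) and with no trend of variance in the fit (0.0873).

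The Il6st promoter went the other way. It had 14.4 to 19.3 scaled reads in axillary (median 16.2), 16.3 to 22.3 in spleen (median 20.4) and 19.6 to 26.6 in mesenteric libraries (median 21.99). The axillary libraries all lay below the mesenteric ones and overlapped those of spleen. Here too the share of all regions with such a gap was not counted. Axillary minus mesenteric was -0.44 ± 0.14 (log2, SE; limma adjusted p = 0.0230), and the adjusted p over the 3 organs was 0.0488. On the log2 fold that difference was -0.59 ± 0.10 (limma adjusted p = 0.000244), while with the fragment covariate it was -0.55 ± 0.23, with a larger error, and did not pass (limma adjusted p = 0.252, and 0.272 over organs). The call was also lost on leaving out any 1 of 14 libraries (limma adjusted p up to 0.135) and held without spleen high 2, mesenteric high 3, axillary low 2 or axillary high 1.

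The remaining 3 regions did not pass in this fit. The Il4ra region past the gene's end had an adjusted p of 0.350 over organs, the Il6st region past its gene 0.278 and that at 25.8 kb 0.846, all from limma's F test. Between libraries of 1 group, summit reads over the 8756 regions varied less than between groups. The chi-square per region was 0.512 to 0.636 (median 0.579) in the 18 such pairs and 0.621 to 0.940 (median 0.741) in the other 135 pairs. Unselected counts would give 1, but these are maxima of called peaks in regions called in every library. The values therefore cannot be set against 1, and whether libraries of 1 group are technical replicates was not settled. Each was kept as a replicate, as the labels have it. With the means of the 6 groups as the only data, limma's adjusted p over organs was 0.0166 for the farthest upstream Il6st region, 0.119 for the Il6ra region and 0.182 for the Il6st promoter, so that only the first passed, where 2.7% of all regions did.

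**Figure D3:**
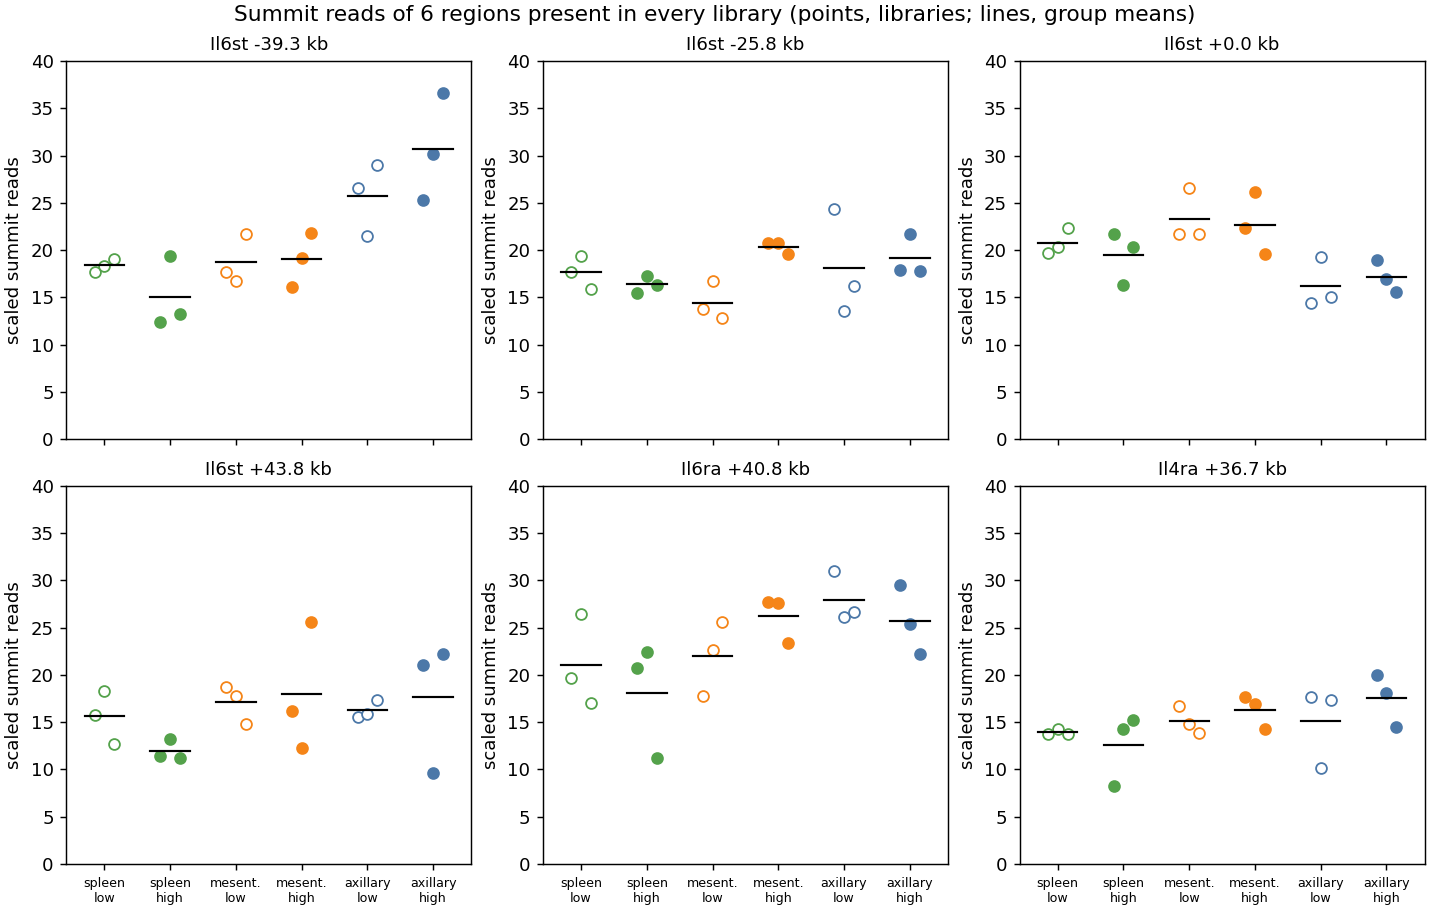
Scaled summit reads (y axis) of the 6 regions with a peak in all 18 libraries are shown by group, open points for low and filled points for high libraries, with lines at the means of 3 libraries. At the Il6st region 39.3 kb before the start the axillary libraries sit at 21.5 to 36.7 and the spleen libraries at 12.4 to 19.3. At the Il6st promoter (+0.0 kb) the axillary libraries sit at 14.4 to 19.3, below the mesenteric ones. The share of all regions with such gaps was not counted.

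**Figure D4:**
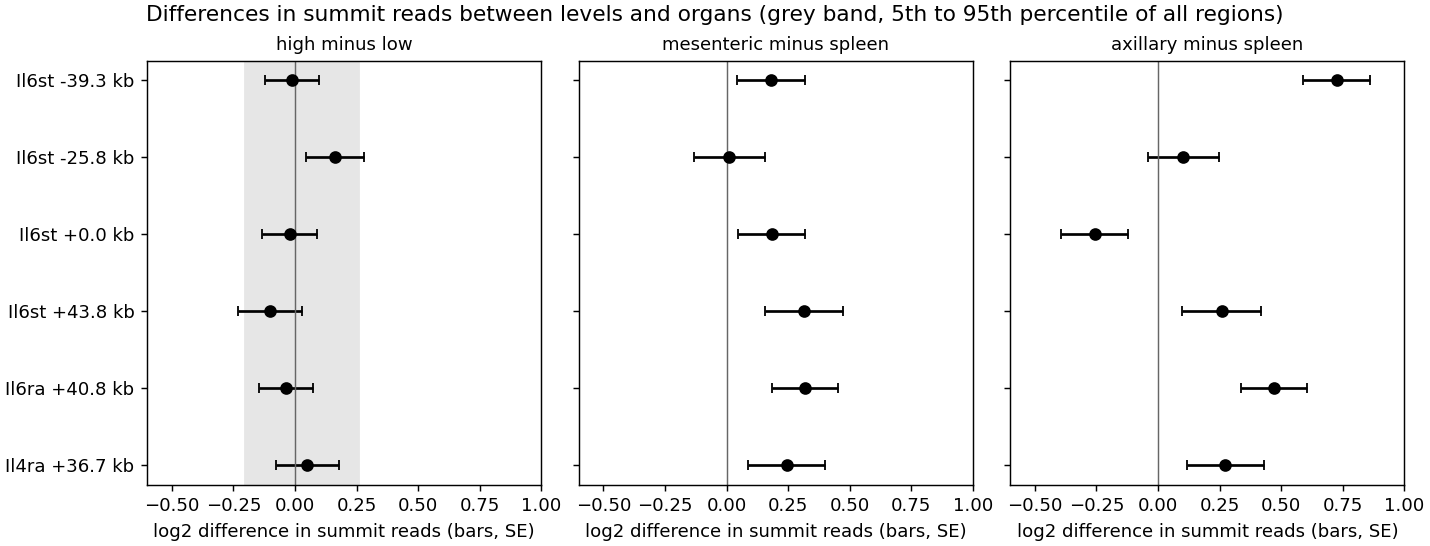
Log2 differences in scaled summit reads (points; bars, SE) for the same 6 regions between high and low, mesenteric and spleen, and axillary and spleen libraries. All high-minus-low points lie inside the grey band, which spans -0.20 to 0.26, while axillary minus spleen reaches 0.72 at the farthest upstream Il6st region and is negative at the Il6st promoter.

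Other chains of cytokine receptors and the proteins below them were counted in the same way. Of 29 further receptor genes, 22 had a region, and 8 of their 76 regions (10.5%) had a peak in all 18 libraries. In the presence test for high against low 19 could be tested and none passed the adjusted threshold (0% of all tested regions). At an unadjusted p under 0.05, 2 were more frequent in high libraries, against 5.84% of all tested regions: one at Ifnar2, an interferon receptor chain (8 high against 2 low, Fisher's exact p = 0.0152), and one 22.8 kb from an end of Il10ra, the ligand-binding chain of the IL-10 receptor (6 against 1, p = 0.0498). By summit reads none of 8 regions was called for high against low (1.51% of all regions), 2 had an unadjusted p under 0.05 (13.6% of all), and the median difference was 0.07 (log2). Over organs 2 were called, against 13.4% of all regions. These were at the gene ends of Ifnar1 (axillary minus spleen -0.49 ± 0.13, limma adjusted p over organs 0.0118) and Ifngr1, an interferon-gamma receptor chain (axillary minus mesenteric -0.35 ± 0.10, limma adjusted p over organs 0.0226).

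All 17 genes of JAK kinases, STATs and SOCS proteins, the feedback inhibitors of the pathway, had a region, and 15 of their 56 regions (26.8%) had a peak in all 18 libraries. None of 11 regions passed the presence test for high against low, adjusted or unadjusted, against 0% and 6.1% of all tested regions. Across organs 4 of 16 had an unadjusted p under 0.05, against 11.2% of all tested regions, and none passed the adjusted threshold (0% of all). Of the 15 tested by summit reads, none was called by limma for high against low, against 1.51% of all tested regions. None had an unadjusted p under 0.05 there either (13.6% of all), and none was called over organs (13.4% of all). With so few regions, counts of 0 are not read as a result about these genes. Their median difference of high minus low was -0.03 (log2).

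The regions most like 3 of the members were sought among 8454 regions of other genes by the Pearson correlation of log2 scaled reads over 18 libraries, given as a description of libraries that share depth and groups. The farthest upstream Il6st region was most like regions of N6amt1 (r = 0.813) and Tle4 (r = 0.792), the Il6ra region like those of Cytip (r = 0.783) and Cxcr4 (r = 0.776), and the Il4ra region past its gene like those of Dlk1 (r = 0.831) and Kcng3 (r = 0.796).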

How the data were processed

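Each library has 1 deposited peak list on mm10, called per sample. The submitters' processing notes name Trimmomatic 0.33 besides Bowtie2, bedtools and MACS. Other versions, caller options, read shifting and the treatment of duplicates were not given in the sources used here. For each peak the authors deposited a score, a fold enrichment (a ratio to the local background), a −log10 p, a −log10 q and a summit. These are the authors' own values and describe peaks within a list. No deposited −log10 p was under 5.00.

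The autosomes and X held 314425 of the 314829 peaks, and the other 404 were set aside. Regions were assigned with 21631 protein-coding genes of GRCm38.p6. The fold of a peak is (summit reads + 1)/(background + 1) and its p a Poisson tail. Exactly 1 whole number of summit reads matched both within 0.002 in 99.0% of peaks, and in all but 1 of the 234 peaks of the 22 regions. Local backgrounds were whole reads within 0.02 in 97.3%. Where a library had more than 1 peak in a region, the highest was used. Only regions with a peak in all 18 libraries have a value everywhere, so regions that a library lacks were tested by presence alone.

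Summit reads were fitted with limma 3.58.1 (R 4.3.3) on log2(reads/size factor + 1), with 1 mean per group and a variance trend. Presence was tested with Fisher's exact and Fisher-Freeman-Halton tests in Python 3.11.15 with scipy 1.17.1, two-sided, with Benjamini-Hochberg adjustment over all regions tested and a threshold of 0.05. Fisher's exact test and limma's test for high against low were tried on simulated data first. The Fisher-Freeman-Halton test and limma's F tests over organs and of the interaction were not checked in that way. The organ test of summit reads also ran with the alternatives given below.

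The members, the gene lists and the tests were chosen with earlier results of these data known. Values per library were given, by rule, for each gene's all-library region with the most reads and for regions past a threshold. The Il6st promoter was added because of its organ test, after its values were seen. The folds per library of the Il2rg promoter were also given outside that rule. Il2rb was not in the promoter table used. No genome sequence was used, so sequences of distal regions are not shown.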

Additional observations from a re-analysis of the deposited data

How the results depend on the processing

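For high against low, the adjusted counts by presence and by summit reads stayed at 0 under every alternative run, and so did those of the interaction. The unadjusted count by presence, 1, became 0 with lists of equal length, at a −log10 p of at least 8, with a limit of 10 kb in place of 100 kb (fewer regions), without the mesenteric libraries and, chosen after seeing the data, in short-fragment libraries only, where 7 high and 5 low libraries remain. It became 2 with a peak over 50% of the region, and 1 to 3 without single replicates. At equal depth it was 1, but of another region, the Il6ra region past the gene's end (6 against 1). That count rests on the first of 20 random draws, over which this Il6ra region averaged 5.05 high against 1.4 low libraries. Leaving out axillary high 1 or any mesenteric high library brought in the Il6st region at 36.4 kb (3 high against 8 low), while leaving out spleen low 1 or 2 or any mesenteric low library brought in regions of Il6st or Il6ra more frequent in high libraries.

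Across organs the unadjusted count by presence, 1, became 0 with lists of equal length, at equal depth, at a −log10 p of at least 8 and in the low libraries alone, and was 1 to 2 without single replicates. It was 2 without spleen low 1 or 2, spleen high 3, mesenteric low 3 or any axillary library. The organ calls by summit reads, 3, became 1 with the means of the 6 groups and 1 with the fragment covariate, added after seeing the data, and ranged from 1 to 3 without single replicates, being 1 without spleen low 1, spleen low 3, spleen high 3 or axillary low 1. Scaling by the genome background gave 4, with the Il6st region past its gene added (limma adjusted p = 0.0312), and a fit with no trend of variance, added after seeing the data, gave 2. On the log2 fold 2 were called, the Il6st promoter and the Il4ra region past its gene (limma adjusted p = 0.0475). Over 27 alternatives the farthest upstream Il6st region was called in 26 (all but the log2 fold), the Il6ra region in 18 and the Il6st promoter in 10. The causes were not tested. The number of regions fell from 22 to 13 at 10 kb.

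No pairing by replicate number was seen. Over 45 same-numbered pairs from different groups, correlations of deviations from group means were -0.0272 to 0.0377 (median 0.00317). The median was -0.00188 over 90 pairs with different numbers, and 7 of 18 libraries matched best with their own number. Counting noise in summits of few reads can hide a pairing, so whether equal numbers mark a shared animal was not settled. With the replicate number as a block, the unadjusted counts by presence became 0 for high against low (Il2rb region, exact stratified p = 0.064) and 0 across organs (Il6ra promoter, exact p = 0.052), organ calls by summit reads became 2 (the Il6st promoter had a limma adjusted p of 0.0508), and the other counts stayed at 0. Peaks of a few reads limit what can be seen: summits of the 22 regions held 5 to 36 reads.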
